A study of Mus musculus with 15 samples.

Results

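Hoxa5, Hoxa7, Hoxa9, Hoxa10, Hoxb2, Hoxb3, Hoxb4, Hoxb5 and Meis1 were followed across 4 genotypes of lineage-negative mouse bone marrow cells. The 9 genes were chosen by name as Hox genes and a Hox cofactor of blood progenitors, and their symbols were matched to the Ensembl identifiers of the count table. They are 9 of the 45706 genes listed, and all 9 were among the 18983 genes that passed the filter on low counts. After adjustment over all genes tested, 0 of the 9 passed the test in any of 8 comparisons between genotypes, beside 0.0369% to 0.801% of all genes. The Hox B members had their lowest mean level in WT. Meis1 and Hoxa10 had their highest in Puma-/-, and Hoxa5, Hoxa7 and Hoxa9 had theirs in libraries labelled G3 mTerc-/-Puma-/-. Such orders of means were not tested.

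Hox genes encode homeodomain transcription factors that lie in 4 clusters, and the order of the genes along a cluster mirrors where and when they act in the embryo. In adult blood formation, Hox A and Hox B genes are read in stem and early progenitor cells and are shut off as the cells mature. MEIS1 and the PBX proteins belong to the TALE class of homeodomain proteins and bind DNA together with HOX proteins, MLL complexes maintain transcription of the clusters and Polycomb complexes silence them.

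The cells were sorted with magnetic beads from bone marrow of secondary recipients, irradiated CD45.1 mice that carried serially transplanted stem and progenitor (LSK) cells of young adult CD45.2 C57BL/6J donors. Donors were WT, Puma-/- (no PUMA, a pro-apoptotic BH3-only protein encoded by Bbc3), G3 mTerc-/-Puma+/+ (bred without the telomerase RNA to generation G3, so that telomeres shorten) or G3 mTerc-/-Puma-/- (both genes deleted in every cell). The libraries numbered 3, 4, 4 and 4, with totals of 102790519 to 158367059 counts. The sort is described by lineage markers alone, so that cells of the host could remain, and the sources used here do not say whether a library pools mice. The p-values therefore measure only the spread between these libraries, part of which may be technical.

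The targeted genes were looked at first. Terc had 4 to 17 counts in each WT and Puma-/- library and 0 or 1 in each of the 8 mTerc-/- libraries. Bbc3 was at 5.02 to 6.80 CPM (counts scaled to a common library size with TMM factors) in the Puma-/- libraries, at 9.67 to 23.5 in WT and at 11.7 to 20.7 in G3 mTerc-/-Puma+/+. In the libraries labelled G3 mTerc-/-Puma-/- it was at 13.45 to 17.0 CPM, above every Puma-/- library, and the log2 fold change between them was 1.48 (SE 0.266, adjusted p = 0.0345, edgeR's quasi-likelihood test). Bbc3 thus went against the label of these libraries, whose genotype is given as labelled (labelled double knockout libraries), and each direction drawn from them rests on that label.

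Of these libraries, replicate 2 is not drawn in the heatmaps of the study. It stood apart, with 9 erythroid markers summing to 1621 CPM against 239.7 to 436.2 in the other libraries. The values below come from the other 14 libraries, and replicate 2 is given beside them on the scale of all 15. The sex of the cells also differed, with Xist at 463.6 to 864.7 CPM in the Puma-/- libraries and at 0.176 to 88.5 CPM in G3 mTerc-/-Puma+/+, while WT spanned 1.72 to 416.5 and the libraries labelled G3 mTerc-/-Puma-/- 0.386 to 659.4. The Y-linked gene Kdm5d was at 0 to 0.0624 CPM in Puma-/-, at 13.1 to 27.3 in WT, at 26.3 to 29.2 in G3 mTerc-/-Puma+/+ and at 2.54 to 4.29 in the labelled double knockout libraries. Male cells were thus near absent from Puma-/- and present in every library of the other genotypes. In all 3 comparisons with Puma-/-, the effect of the genotype and that of the sex of the cells cannot be told apart. Y-linked Eif2s3y and Kdm5d were also lower in the labelled double knockout libraries than in G3 mTerc-/-Puma+/+ (log2 fold changes -3.08 and -2.94, adjusted p = 0.00636 for both). Against WT they were lower too (-2.845 and -2.43, adjusted p = 0.00693 and 0.0177). Y-linked Ddx3y and Uty passed in neither comparison. They spread widely in the labelled double knockout libraries, at 17.65 ± 24.42 and 5.023 ± 6.849 CPM (SD). In G3 mTerc-/-Puma+/+ they were at 46.01 ± 2.396 and 13.41 ± 1.877 CPM. Labelled double knockout replicate 3 had Xist at only 0.386 CPM with Kdm5d at 4.004 CPM, so these genes give no single answer on its sex. In these comparisons too, genotype and sex of the cells cannot be told apart.

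In GENCODE vM21 (GRCm38), the 4 Hox A members lie on the minus strand of chromosome 6, Hoxa5 (ENSMUSG00000038253) from 52201754 to 52204587, Hoxa7 (ENSMUSG00000038236) from 52214491 to 52221854, Hoxa9 (ENSMUSG00000038227) from 52223100 to 52231089 and Hoxa10 (ENSMUSG00000000938) from 52231197 to 52240854. The 4 Hox B members lie on the plus strand of chromosome 11, Hoxb5 (ENSMUSG00000038700) from 96303336 to 96306121, Hoxb4 (ENSMUSG00000038692) from 96318267 to 96321638, Hoxb3 (ENSMUSG00000048763) from 96323326 to 96347930 and Hoxb2 (ENSMUSG00000075588) from 96350525 to 96354012. Meis1 (ENSMUSG00000020160) lies elsewhere on chromosome 11, on the minus strand, from 18879817 to 19018985. All 9 are annotated as protein-coding. Exons of the antisense gene Hoxb3os cover 52.93% of the exonic bases of Hoxb3 and 27.32% of those of Hoxb2, Hoxaas3 covers 20.38% of Hoxa7, and Hoxb5os 3.59% of Hoxb5. The library kit marks the strand, but the strand setting of the counting is not given in the sources used here, so reads of these genes and of their antisense partners may not be separated. Meis1 shares 9.77% of its exonic bases with a gene on its own strand and 8.51% with an antisense gene, and Hoxa9 shares 1.52% with the miRNA gene Mir196b.

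Sequence is shown for Hoxa10, Hoxb4 and Meis1, one from each cluster and the cofactor, whose libraries did not overlap in at least 1 comparison below. Each is the 250 bases before a transcription start, from RefSeq (GRCm38.p6), written 5′ to 3′ along the gene. Capitals mark the motifs searched. The first window starts a shorter Hoxa10 transcript and lies at chr6:52234940-52235189 on the minus strand, the second is at chr11:96318017-96318266 on the plus strand, directly before Hoxb4, and the third at chr11:19018970-19019219 on the minus strand, of whose bases 16 lie in an annotated Meis1 exon.
Hoxa10: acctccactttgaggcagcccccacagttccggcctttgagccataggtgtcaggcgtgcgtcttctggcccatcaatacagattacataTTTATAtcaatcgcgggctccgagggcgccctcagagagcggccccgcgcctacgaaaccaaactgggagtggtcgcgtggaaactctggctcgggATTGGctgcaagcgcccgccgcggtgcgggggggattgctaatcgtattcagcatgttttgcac
Hoxb4: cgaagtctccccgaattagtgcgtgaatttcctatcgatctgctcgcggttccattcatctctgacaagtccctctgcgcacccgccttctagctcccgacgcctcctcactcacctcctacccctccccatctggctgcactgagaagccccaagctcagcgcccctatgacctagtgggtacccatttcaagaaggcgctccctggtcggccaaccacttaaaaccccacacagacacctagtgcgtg
Meis1: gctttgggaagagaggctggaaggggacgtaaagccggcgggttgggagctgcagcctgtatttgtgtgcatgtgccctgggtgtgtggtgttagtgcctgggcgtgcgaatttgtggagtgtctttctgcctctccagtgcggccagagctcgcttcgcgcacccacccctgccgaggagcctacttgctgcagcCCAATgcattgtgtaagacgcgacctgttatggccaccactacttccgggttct

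RefSeq windows matched 6 of the 9 members, with 2 for Hoxa10. On either strand, TGACAG, the core site of MEIS and PREP proteins, was in 0 of these 7 windows and in 15.9% of all 32851 windows of the same length. TGATNNAT, bound by PBX with HOX, was in 0 of 7 and in 7.68% of all windows, and the E-box CACGTG was in 0 of 7 and in 6.02%. CCAAT, the NF-Y box, was in 3 of 7, the Hoxa5 window and the Hoxa10 and Meis1 windows printed above, and in 33.8% of all windows. TATAAA was in 1 of 7, the printed Hoxa10 window, and in 12.4%, and GGGCGG, the box of SP factors, was in 2 of 7 and in 32.7%. The Hoxb4 window held 0 of the 6 motifs.

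Per kb of exon, Hoxa7 had the highest mean level over the 14 libraries, at 3.87 CPM per kb, followed by Hoxa9 at 3.03, Hoxb4 at 2.998, Meis1 at 1.725, Hoxa5 at 1.496, Hoxa10 at 0.499, Hoxb3 at 0.151, Hoxb2 at 0.0769 and Hoxb5 at 0.0538. Hoxa7 was above Hoxa9 in 14 of 14 libraries, Hoxb4 above Meis1 in 14 and Hoxa5 above Hoxa10 in 14, and of all neighbours in this order only the ranges of Hoxa5 and Hoxa10 did not overlap. Hoxa10 was above Hoxb3 in 14 of 14 libraries, Hoxb3 above Hoxb2 in 13 and Hoxb2 above Hoxb5 in 11. Hoxa9 and Hoxb4 did not differ beyond their spread, with Hoxa9 higher in 8 of 14 libraries, and neither did Meis1 and Hoxa5, with Meis1 higher in 8 of 14. The raw counts ran from 1396 to 3374 for Meis1 and from 1388 to 2807 for Hoxa9, against 8 to 84 for Hoxb2 and 4 to 38 for Hoxb5, whose values carry the largest counting error. A count of 0 would allow up to 3 counts, at most 0.0292 CPM, a limit for counting error alone. The biological coefficient of variation fitted by edgeR ran from 0.150 for Hoxb4 to 0.545 for Hoxb5, with a median of 0.192 over all genes tested.

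Of 39 Hox genes in the table, 24 passed the filter, 9 of 11 in the A cluster, 7 of 10 in B, 7 of 9 in C and 1 of 9 in D. The A cluster held 70.62% of the summed Hox level per kb and the B cluster 23.28%. The 8 Hox members alone held 80.94%. Hoxa7 and Hoxa9 were the highest genes of the A cluster and Hoxb4 that of the B cluster. All 7 tested Hox B genes had their lowest genotype mean in WT, as had 6 of 9 in A and 2 of 7 in C, and 8 of the 9 in A had their highest mean in the libraries labelled G3 mTerc-/-Puma-/-. These are orders of means with no test, and the genes of a cluster are not independent.

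Hoxa5, a patterning factor that is also read in early blood progenitors, was at 1.99, 3.03 and 2.78 CPM in WT, at 2.65, 3.36, 2.70 and 2.42 in Puma-/-, at 2.21, 2.19, 3.19 and 2.86 in G3 mTerc-/-Puma+/+ and at 3.28, 3.55 and 3.11 in libraries labelled G3 mTerc-/-Puma-/-. The last group lay above every WT library and overlapped both others. Its log2 fold change was 0.35 against WT (SE 0.203, adjusted p = 0.9998) and 0.34 against G3 mTerc-/-Puma+/+ (SE 0.189, adjusted p = 0.862).

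Hoxa7, whose gene lies between Hoxa5 and Hoxa9, was at 8.31, 10.94 and 10.41 CPM in WT and at 11.1, 13.7, 9.90 and 10.7 in Puma-/-. In G3 mTerc-/-Puma+/+ it was at 8.56, 8.27, 11.4 and 11.7, and the libraries labelled G3 mTerc-/-Puma-/- had 12.95, 14.25 and 13.4. The labelled double knockout libraries lay above every G3 mTerc-/-Puma+/+ and every WT library. The log2 fold change was 0.44 against G3 mTerc-/-Puma+/+ (SE 0.156, adjusted p = 0.553), the member with the lowest p in that comparison, and 0.45 against WT (SE 0.168, adjusted p = 0.735). Replicate 2, at 8.185 CPM, was below every WT and every G3 mTerc-/-Puma+/+ library, and with it the log2 fold changes were 0.29 (SE 0.1845, adjusted p = 0.644) and 0.30 (SE 0.200, adjusted p = 0.680).

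Hoxa9, which drives self-renewal of progenitors and is a common partner of MEIS1 in leukemia, was at 15.2, 20.25 and 12.2 CPM in WT and at 14.4, 19.3, 16.1 and 14.8 in Puma-/-. It was at 11.7, 16.0, 18.65 and 18.4 in G3 mTerc-/-Puma+/+ and at 17.6, 22.2 and 19.5 in libraries labelled G3 mTerc-/-Puma-/-. All groups overlapped, and the means with SD were 15.9 ± 4.05 for the 3 WT, 16.2 ± 2.23 for the 4 Puma-/-, 16.2 ± 3.24 for the 4 G3 mTerc-/-Puma+/+ and 19.8 ± 2.32 for the 3 labelled double knockout libraries. The log2 fold change of that group was 0.31 against WT (SE 0.201, adjusted p = 0.9998) and 0.29 against G3 mTerc-/-Puma+/+ (SE 0.187, adjusted p = 0.905). Against WT it was 0.16 without WT replicate 3 and 0.53 without WT replicate 2, and against G3 mTerc-/-Puma+/+ it was 0.17 without replicate 1 of that genotype.

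Hoxa10, the most 5′ of the Hox A members and a regulator of progenitor expansion, was at 1.79, 2.20 and 0.582 CPM in WT, at 2.09, 2.60, 1.93 and 1.74 in Puma-/-, at 1.29, 1.26, 1.46 and 1.27 in G3 mTerc-/-Puma+/+ and at 1.92, 1.27 and 1.44 in libraries labelled G3 mTerc-/-Puma-/-. Every G3 mTerc-/-Puma+/+ library lay below every Puma-/- library (log2 fold change -0.66, SE 0.306, adjusted p = 0.289). With the Xist level in the fit, the value was -0.28 (adjusted p = 0.853). In this comparison 11 of 13 stem and early progenitor markers, 6 of 6 megakaryocyte and 5 of 5 mast cell and basophil markers were lower too. So were 10 of 10 B lineage and 6 of 6 macrophage markers. Higher were 9 of 9 erythroid, 5 of 5 early myeloid granule and 6 of 6 T and NK markers. Late neutrophil markers were split, with 4 higher and 4 lower. The part of all these cells in the Hoxa10 difference was not tested. Hoxa10 differed by 0.23 on the log2 scale between the labelled double knockout libraries and G3 mTerc-/-Puma+/+ (SE 0.328, adjusted p = 0.976), falling to 0.040 without replicate 1 of the former. Replicate 2, at 3.305 CPM, was above all 14 libraries and raised the value to 0.58.

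**Figure D1:**
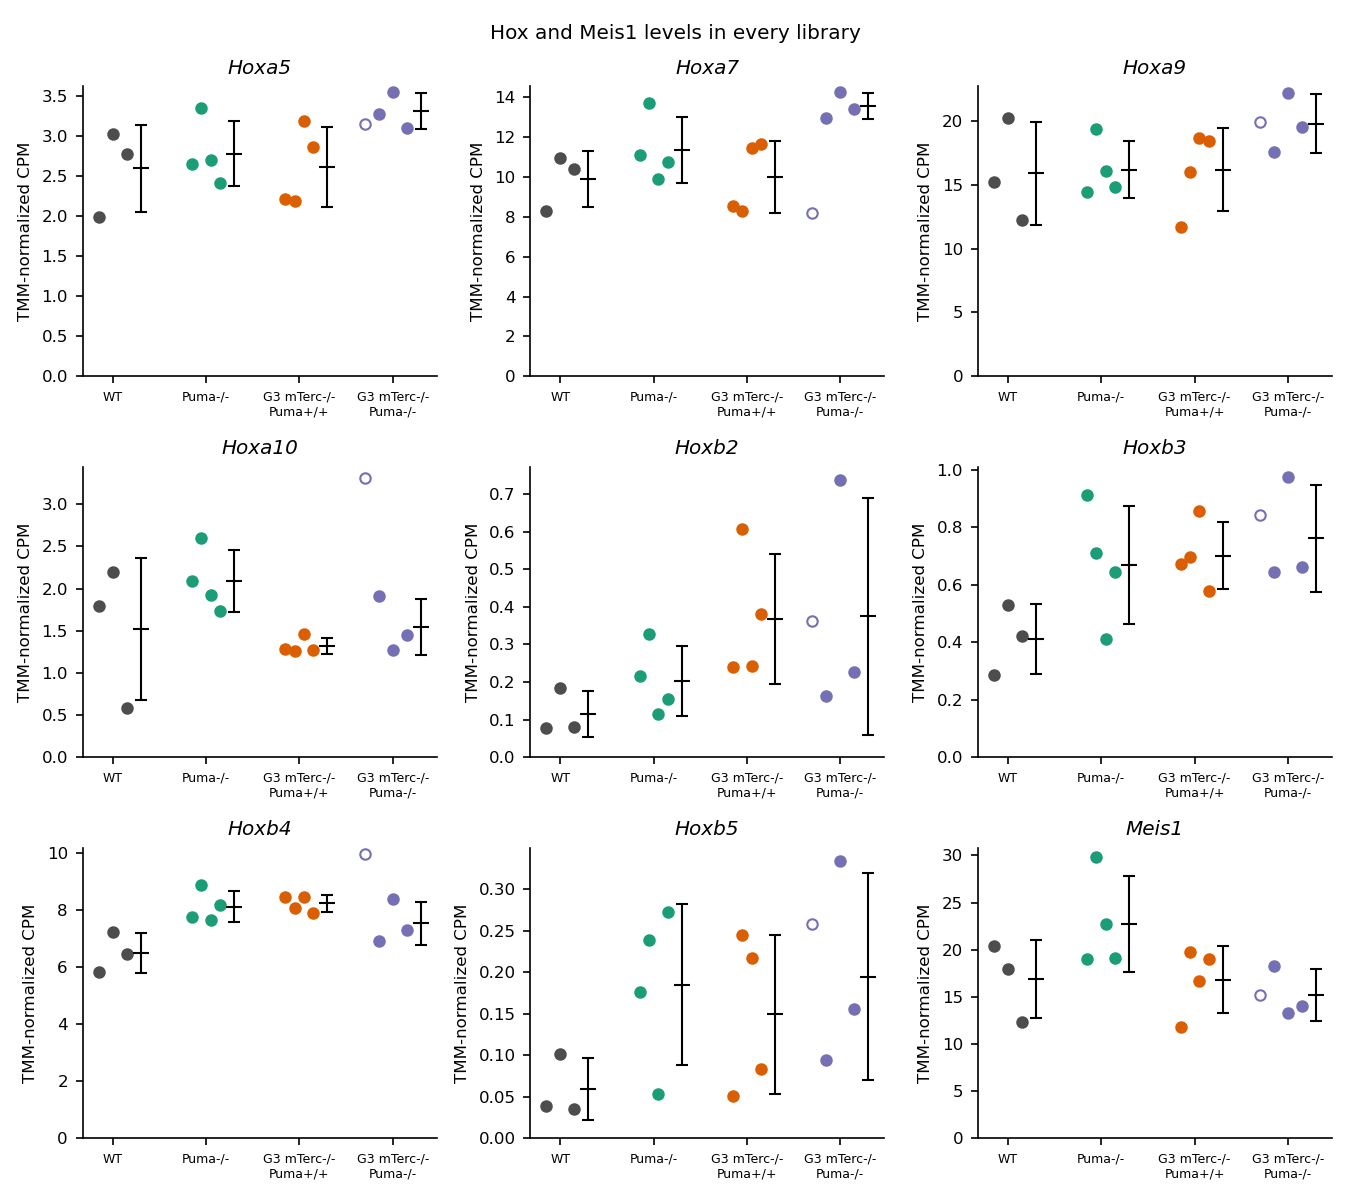
TMM-normalized CPM of each gene (linear axis from 0) in every library, by genotype as labelled. Filled points are the 14 libraries, bars their mean with SD, and the open point is the G3 mTerc-/-Puma-/- replicate 2 that was not in the fit. For Hoxa7 the 3 filled points of that group, at 12.95 to 14.25 CPM, lie above every WT and G3 mTerc-/-Puma+/+ library while the open point, at 8.185, does not.

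Hoxb4, which expands blood stem cells when overexpressed, was the Hox B member with the highest level per kb. It was at 5.84, 7.24 and 6.47 CPM in WT, at 7.78, 8.88, 7.66 and 8.20 in Puma-/-, at 8.48, 8.09, 8.49 and 7.91 in G3 mTerc-/-Puma+/+ and at 6.94, 8.39 and 7.32 in libraries labelled G3 mTerc-/-Puma-/-. The Puma-/- and the G3 mTerc-/-Puma+/+ libraries all lay above every WT library, whereas the labelled double knockout libraries overlapped all groups. Against WT the log2 fold change was 0.32 in Puma-/- (SE 0.1145, adjusted p = 0.421) and 0.34 in G3 mTerc-/-Puma+/+ (SE 0.1145, adjusted p = 0.9984). Between the labelled double knockout libraries and G3 mTerc-/-Puma+/+ it was -0.13 (SE 0.114, adjusted p = 0.951). The interaction of mTerc and Puma, the difference between the effect of mTerc loss with and without Puma, was -0.45 (SE 0.1615, adjusted p = 0.855). Replicate 2 was at 9.98 CPM, above all 14 libraries.

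Hoxb3, the neighbour of Hoxb4, was at 0.285, 0.528 and 0.423 CPM in WT, at 0.912, 0.709, 0.410 and 0.643 in Puma-/-, at 0.673, 0.696, 0.858 and 0.577 in G3 mTerc-/-Puma+/+ and at 0.645, 0.975 and 0.663 in libraries labelled G3 mTerc-/-Puma-/-. All WT libraries lay below every mTerc-/- library, and only Puma-/- overlapped them, through its replicate 3. The log2 fold change against WT was 0.70 in Puma-/- (SE 0.2945, adjusted p = 0.456), 0.76 in G3 mTerc-/-Puma+/+ (SE 0.295, adjusted p = 0.9984) and 0.88 in the labelled double knockout libraries (SE 0.311, adjusted p = 0.697). Between the mTerc-/- groups it was 0.12 (SE 0.284, adjusted p = 0.994).

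Hoxb2, the most 3′ of the Hox B members, was at 0.0787, 0.185 and 0.0794 CPM in WT, at 0.2175, 0.328, 0.116 and 0.154 in Puma-/-, at 0.241, 0.607, 0.241 and 0.381 in G3 mTerc-/-Puma+/+ and at 0.163, 0.738 and 0.226 in libraries labelled G3 mTerc-/-Puma-/-. Every G3 mTerc-/-Puma+/+ library was above every WT library, and the other groups overlapped WT. Against WT the log2 fold change was 1.67 in G3 mTerc-/-Puma+/+ (SE 0.596, adjusted p = 0.9984) and 1.69 in the labelled double knockout libraries (SE 0.621, adjusted p = 0.729), the latter 0.76 without their replicate 3. Between the mTerc-/- groups it was 0.024 (SE 0.536, adjusted p = 0.9982), with a sign that changed with the library left out.

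Hoxb5, known as a marker of long-term stem cells, was the lowest member per kb. It had 4, 11 and 4 counts in WT, 21, 27, 6 and 30 in Puma-/-, 7, 25, 26 and 9 in G3 mTerc-/-Puma+/+ and 15, 38 and 20 in libraries labelled G3 mTerc-/-Puma-/-, which is 0.0393, 0.102 and 0.0353 CPM in WT. The other groups were at 0.176, 0.239, 0.0535 and 0.272 CPM, at 0.0512, 0.245, 0.2165 and 0.0837 and at 0.0940, 0.334 and 0.156, in the same order, and each overlapped WT. The log2 fold change against WT was 1.63 in Puma-/- (SE 0.711, adjusted p = 0.4645) and 1.69 in the labelled double knockout libraries (SE 0.740, adjusted p = 0.866). The first rose to 2.28 without WT replicate 2 and the second fell to 1.06 without replicate 3 of its own group. Between the mTerc-/- groups it was 0.38 (SE 0.626, adjusted p = 0.980).

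Meis1, the TALE cofactor that stabilizes HOX binding and is needed for stem cell maintenance, was at 20.4, 17.9 and 12.3 CPM in WT, at 19.0, 29.9, 22.7 and 19.1 in Puma-/-, at 11.8, 19.8, 16.7 and 19.1 in G3 mTerc-/-Puma+/+ and at 18.3, 13.3 and 14.03 in libraries labelled G3 mTerc-/-Puma-/-. The last group lay below every Puma-/- library, as did replicate 2 at 15.2 CPM, while WT and G3 mTerc-/-Puma+/+ overlapped Puma-/-. Against Puma-/- the log2 fold change of the labelled double knockout libraries was -0.58 (SE 0.222, adjusted p = 0.477), and -0.51 with the Xist level in the fit (adjusted p = 0.796). Against G3 mTerc-/-Puma+/+ it was -0.15 (SE 0.220, adjusted p = 0.976). Other cell markers moved in the comparison with Puma-/-. Megakaryocyte markers, 6 genes, summed to 335.2 to 555.9 CPM in Puma-/- and to 127.8 to 177.7 in the labelled double knockout libraries. Stem and early progenitor markers were lower for 11 of 13 genes (median -0.54), with sums of 1109 to 1173 CPM against 1187 to 1439, and mast cell and basophil markers for 5 of 5 (median -0.85, 4 at an unadjusted p under 0.05), with sums of 1276 to 2529 CPM against 2386 to 3844. Other lists were higher, with 9 of 9 erythroid markers (5 at an unadjusted p under 0.05), 8 of 8 late neutrophil markers (4) and 8 of 10 B lineage markers (6). So were 6 of 6 T and NK and 6 of 6 macrophage markers, 0 of them at an unadjusted p under 0.05. The part of all these cells in the Meis1 difference was not tested. In bulk samples, fewer cells of a type and less RNA per cell cannot be told apart.

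**Figure D2:**
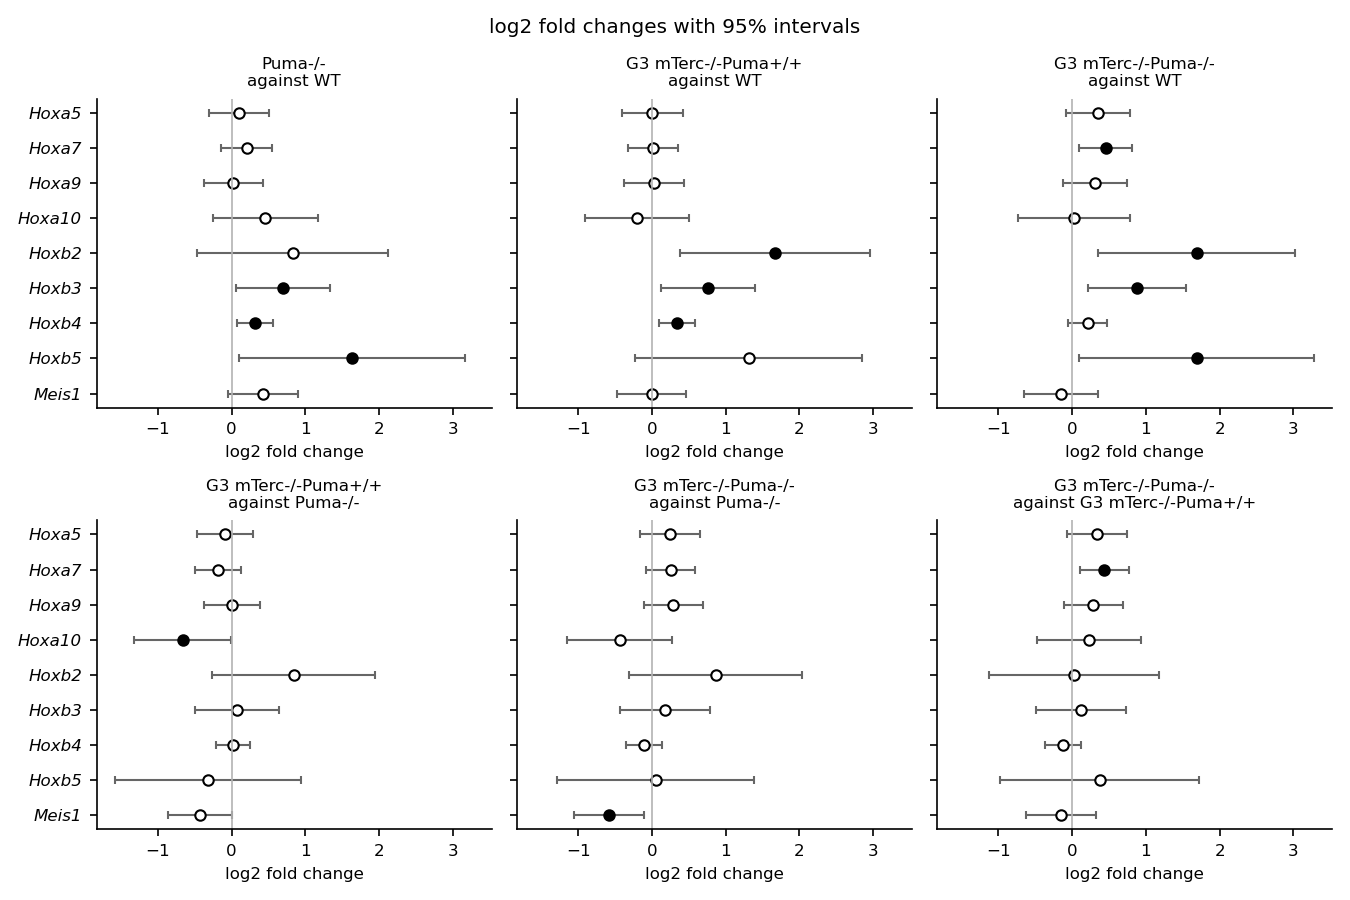
log2 fold changes (points) of the 9 genes with 95% intervals (bars) from edgeR's fit of 14 libraries, for the 6 pairwise comparisons. Filled points have an unadjusted p under 0.05, and 0 pass after adjustment. In the upper row the Hox B genes lie to the right of 0, from 0.21 to 1.69, and in the lower right panel Hoxa7, at 0.44, is the only filled point.

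Counted over the members, 0 of 9 passed at an adjusted p under 0.05 in each of the 8 comparisons. The share of all genes tested that passed was 0.079% for Puma-/- against WT, 0.0369% for G3 mTerc-/-Puma+/+ against WT, 0.0632% for the libraries labelled G3 mTerc-/-Puma-/- against WT, 0.801% for G3 mTerc-/-Puma+/+ against Puma-/- and 0.306% for the labelled double knockout libraries against Puma-/-. It was 0.0738% for the labelled double knockout libraries against G3 mTerc-/-Puma+/+, 0.0527% for the interaction and 0.448% for any difference among the 4 genotypes. A count of 0 of 9 is near these shares and is no result about the members. DESeq2 and limma-voom also called 0 of 9 in each of the 8 comparisons.

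Against WT, the members at an unadjusted p under 0.05 were all higher. They were Hoxb3, Hoxb4 and Hoxb5 in Puma-/- (3 of 9, against 10.1% of all genes), Hoxb2, Hoxb3 and Hoxb4 in G3 mTerc-/-Puma+/+ (3 of 9, against 3.86%) and Hoxa7, Hoxb2, Hoxb3 and Hoxb5 in libraries labelled G3 mTerc-/-Puma-/- (4 of 9, against 5.45%). The median log2 fold change of the members was 0.43 in Puma-/- with 9 of 9 above 0, 0.026 in G3 mTerc-/-Puma+/+ with 7 of 9 above 0 and 0.35 in the labelled double knockout libraries with 8 of 9 above 0. Over all genes tested, the medians were 0.0048, 0.018 and 0.00011. The 3 comparisons share the same 3 WT libraries, of which replicate 1 held the lowest level of 4 members and replicate 3 that of 2. Libraries did not overlap with WT for 1 member in Puma-/- (Hoxb4, against 9.71% of all genes), 3 in G3 mTerc-/-Puma+/+ (Hoxb2, Hoxb3 and Hoxb4, against 4.07%) and 3 in the labelled double knockout libraries (Hoxa5, Hoxa7 and Hoxb3, against 8.52%). In an exact two-sided permutation test of single genes, p was 0.0286 for each of these in the first 2 comparisons and 0.1 in the third, the smallest that these numbers of libraries allow. These genes were picked because their libraries did not overlap, so the test is no further support. The counts at an unadjusted p under 0.05 rested on single libraries. Without WT replicate 1 they fell from 3, 3 and 4 to 1, 0 and 0, and without WT replicate 3 they were 1, 3 and 2. Without WT replicate 2 they rose to 4, 4 and 6, and without G3 mTerc-/-Puma+/+ replicate 1 the second rose to 4. Without Puma-/- replicate 1 or replicate 2 the first was 1, and without G3 mTerc-/-Puma-/- replicate 3 the last was 1.

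Among the other genotypes, 1 of 9 members had an unadjusted p under 0.05 in each comparison. It was Hoxa10 between G3 mTerc-/-Puma+/+ and Puma-/- (lower, against 17.1% of all genes), Meis1 between the labelled double knockout libraries and Puma-/- (lower, against 8.42%) and Hoxa7 between the labelled double knockout libraries and G3 mTerc-/-Puma+/+ (higher, against 6.22%). The same 3 members, 1 in each comparison, were those whose libraries did not overlap, against 10.8%, 9.54% and 5.55% of all genes. In the exact permutation test p was 0.0286, the smallest possible, for Hoxa10 and Meis1, and 0.0857 for Hoxa7, where the smallest possible was also 0.0286. Here too the members were picked for libraries that did not overlap, so the test is no further support. For the interaction the member with an unadjusted p under 0.05 was Hoxb4, against 4.93%. For any difference among the 4 genotypes such members were Hoxa7, Hoxb2 and Hoxb4, against 11.4%. The share of members was near that of all genes in the comparisons between the other genotypes. With single libraries left out, these counts ran from 0 to 2 in both comparisons with Puma-/-, from 1 to 2 between the mTerc-/- groups and for the interaction, and from 0 to 4 for any difference. With all 15 libraries they were 0 between the mTerc-/- groups and for the interaction, and 1 in each comparison with Puma-/-. With a replicate block or the Xist level in the fit they were 0 in both comparisons with Puma-/-, and 1 between the mTerc-/- groups and for the interaction. The median log2 fold change was -0.090 between G3 mTerc-/-Puma+/+ and Puma-/-, 0.18 between the labelled double knockout libraries and Puma-/- and 0.23 between the labelled double knockout libraries and G3 mTerc-/-Puma+/+, beside -0.00049, 0.0092 and -0.015 over all genes.

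The other genes of the pathway were described by counts. Of the other Hox genes, 16 of 31 passed the filter and 0 passed the test in any comparison. Among those with the lowest p were Hoxb7 in the labelled double knockout libraries against WT (log2 fold change 2.47, SE 0.682, adjusted p = 0.463) and Hoxc6 in G3 mTerc-/-Puma+/+ against Puma-/- (-1.47, SE 0.483, adjusted p = 0.1505). Of 12 noncoding genes of the clusters, 5 were tested and 0 passed. Both Hox B antisense genes were, like their partners, lowest in WT, with Hoxb3os at 0.0928 ± 0.112 CPM in WT (SD, n = 3) and 0.3545 ± 0.131 in G3 mTerc-/-Puma+/+ (n = 4), and Hoxb5os at 0.123 ± 0.0682 in WT and 0.417 ± 0.289 in the labelled double knockout libraries (n = 3 each).

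Among 8 further TALE genes, partners of HOX proteins, 0 passed. Meis3 lay at -0.77 on the log2 scale between G3 mTerc-/-Puma+/+ and Puma-/- (SE 0.265, adjusted p = 0.168), and Pbx3 -0.54 between the labelled double knockout libraries and G3 mTerc-/-Puma+/+ (SE 0.168, adjusted p = 0.445). Between G3 mTerc-/-Puma+/+ and Puma-/- the 8 genes had a median of -0.49, with 6 of 8 lower.

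For the machinery that keeps Hox genes on or off, 0 of 16 genes of the MLL complexes and of DOT1L and 0 of 14 Polycomb genes passed. Their medians lay between -0.039 and 0.022 and between -0.060 and 0.028 over the 7 comparisons with a direction. The lowest p belonged to Suz12 (log2 fold change 0.34, SE 0.0747, adjusted p = 0.0512), Eed (0.30, SE 0.0786, adjusted p = 0.0804) and Cbx7 (-0.68, SE 0.184, adjusted p = 0.08825), all in G3 mTerc-/-Puma+/+ against Puma-/-. In the MLL list it was lowest for Rbbp5 in that comparison (0.15, SE 0.0600, adjusted p = 0.214). The 3 Cdx genes, which act upstream of Hox genes in the embryo, did not pass the filter.

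Of 12 genes known as targets of HOXA9 and MEIS1, 1 passed. Pf4, a platelet chemokine that is also in the megakaryocyte list, fell against Puma-/- in G3 mTerc-/-Puma+/+ (log2 fold change -1.63, SE 0.271, adjusted p = 0.0213) and in the labelled double knockout libraries (-2.22, SE 0.308, adjusted p = 0.00594). Its fellow megakaryocyte markers Gp1bb (-1.525 and -2.14) and Gp9 (-1.29 and -1.615), parts of a platelet receptor, fell in both comparisons too, and Ppbp (-2.01) in the second, while 0 of the other 11 target genes passed. Flt3, a progenitor receptor, had -0.55 in the first comparison (SE 0.217, adjusted p = 0.220), and Erg 0.26 in Puma-/- against WT (SE 0.116, adjusted p = 0.484).

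Markers of stem and early progenitor cells, the cells in which these genes are read, were present in all 14 libraries, with 13 genes summing to 1029 to 1439 CPM, and 0 of 13 passed the test. Among the lowest p were those of Ly6a, a surface antigen of stem cells (1.07 in the labelled double knockout libraries against G3 mTerc-/-Puma+/+, SE 0.281, adjusted p = 0.273), and Procr, a receptor on stem cells (-0.66 in G3 mTerc-/-Puma+/+ against Puma-/-, SE 0.175, adjusted p = 0.08475). The list had a median of 0.43 in Puma-/- against WT, with 11 of 13 genes higher, beside 9 of 9 members. Against Puma-/-, 11 of 13 were lower both in G3 mTerc-/-Puma+/+ (median -0.55, 7 at an unadjusted p under 0.05) and in the labelled double knockout libraries (median -0.54, 6 at an unadjusted p under 0.05), beside 5 of 9 and 3 of 9 members.

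Maturing cells were also present. Between the labelled double knockout libraries and G3 mTerc-/-Puma+/+, where Hoxa7 had its lowest p, 10 of 10 B lineage markers were higher, with sums of 65.15 to 133 CPM against 39.4 to 51.1, and Igll1, a part of the pre-B cell receptor, rose (2.95, SE 0.454, adjusted p = 0.0393). Between G3 mTerc-/-Puma+/+ and Puma-/-, 10 of 10 were lower and Ms4a1, a surface protein of B cells, fell (-2.61, SE 0.270, adjusted p = 0.000444). In the comparison of the mTerc-/- groups, 8 of 8 late neutrophil markers were higher, with sums of 1540 to 3610 CPM against 1250 to 2138, and 9 of 9 erythroid markers, with sums of 349.1 to 436.2 against 293.6 to 375.3, and 0 of these passed. Also higher were 6 of 6 macrophage markers (2 at an unadjusted p under 0.05) and 5 of 6 T and NK markers. Lower were 6 of 6 megakaryocyte (median -0.60), 5 of 5 early myeloid granule (median -0.21) and 4 of 5 mast cell and basophil markers. The part of these cells in the levels of the Hox members was not tested. Of the T and NK, early myeloid granule, macrophage, and mast cell and basophil lists, 0 genes passed in any comparison.

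Within genotypes, the members were compared over the 14 libraries after the mean of each genotype was removed from the log2 CPM. Of 36 pairs, 34 correlated above 0, with a median Pearson's r of 0.46 and a range of -0.28 to 0.92, and 0 passed after adjustment over the 36 pairs by exact permutation within genotypes, beside 10 at an unadjusted p under 0.05. Hoxa5 and Hoxa7 had the highest value, with r = 0.92 (exact permutation p = 0.00453, adjusted p = 0.163) and Spearman's rho = 0.92 (exact permutation p = 0.00719, adjusted p = 0.1545). Without the 2 libraries farthest from the median of Hoxa5, r was 0.90. Hoxa10 and Meis1, on different chromosomes, had r = 0.65 (exact permutation p = 0.0206, adjusted p = 0.169) and rho = 0.59 (exact permutation p = 0.0559, adjusted p = 0.254), and r = 0.66 without 2 libraries. The libraries share preparation and the genes of a pair share their libraries and depth. Other pairs of genes were not correlated in this way, so the counts of pairs are no result particular to the members. The lowest r was that of Hoxb3 and Meis1.

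**Figure D3:**
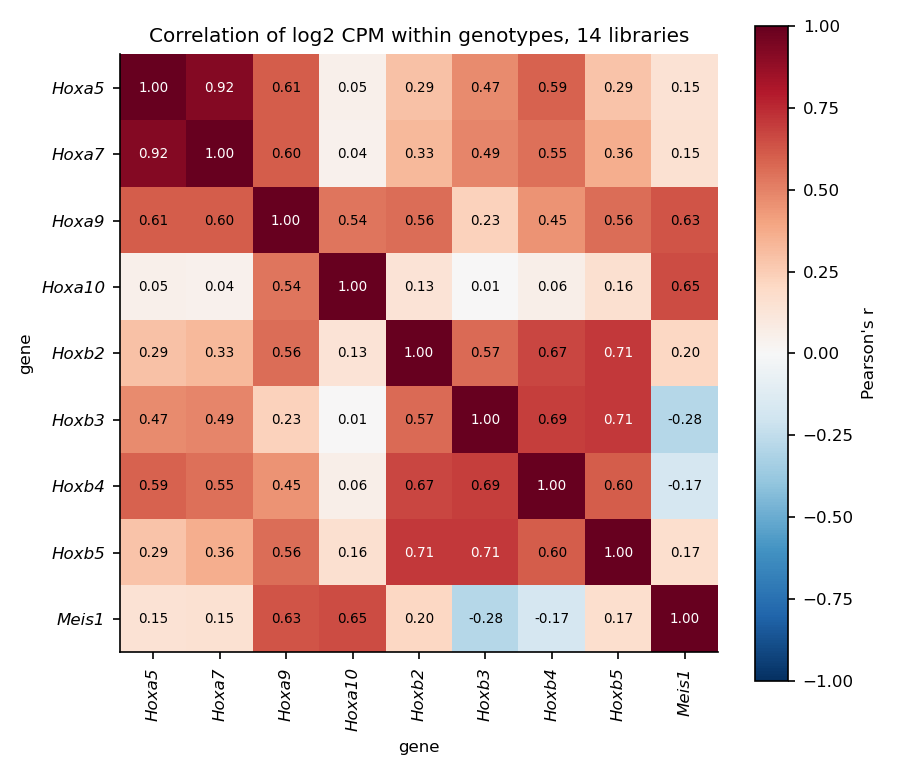
Pearson's r between the log2 CPM of each pair of genes over 14 libraries, after the genotype means were removed. Red marks values above 0 and blue those below, and the pair of Hoxa5 and Hoxa7 stands out at 0.92.

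G3 mTerc-/-Puma-/- replicate 2, which was not in the fit, lay within the range of the 14 libraries for the remaining members, with Hoxa5 at 3.15 CPM, Hoxa9 at 19.9, Hoxb3 at 0.843, Hoxb2 at 0.3615 and Hoxb5 at 0.258. The replicate 3 library labelled G3 mTerc-/-Puma-/- held the highest level of 6 of the 9 members and Puma-/- replicate 2 that of the other 3. Over the 14 libraries, the genes whose log2 CPM was most like the mean of the 9 members were 4930555A03Rik (Pearson's r = 0.91), Uaca (0.87), Ttc26 (0.87), Sh2d5 (0.85) and Lysmd2 (0.84), a description across libraries that share genotype and depth, with no test.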

How the data were processed

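The authors made stranded libraries from poly(A) RNA, trimmed adapters with Trimmomatic (0.38, per the submitters' processing notes) and counted reads per gene with STAR (2.5.2b) on GRCm38 (mm10). The deposited values are these raw counts, and the annotation is not given in the sources used here. Symbols and exon lengths came from GENCODE vM21, in which 563 identifiers with 0.0643% of the counts had no symbol.

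Counts were fitted in R 4.3.3 with edgeR 4.0.16 (TMM factors of 0.926 to 1.07, filterByExpr, quasi-likelihood test, all 4 genotypes in one fit, Benjamini-Hochberg adjustment over 18983 genes, threshold 0.05) for 6 pairwise comparisons, the interaction and any difference, 8 in all. CPM are counts scaled by library total and TMM factor, and the prior count for log2 CPM was 2. SEs were derived from the test. The 14 libraries of the study's heatmaps were used. Alternatives were all 15 libraries, library size alone, no or a stricter filter (1 CPM in 3 libraries), DESeq2 1.42.0, limma-voom (limma 3.58.1), the compared groups alone, a replicate block, the Xist level as a covariate and leaving out each library. The tests were checked on simulated counts.

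The members and lists were chosen with earlier results of these data known. Fold changes are given for all members between the mTerc-/- groups, for each member's lowest p, and wherever the unadjusted p was under 0.05. From the other lists, genes that passed and up to 3 with the lowest p are named, apart from some that are not reported here, and the 5 genes most like the members' mean. Hoxb3os and Hoxb5os levels were given because they overlap members. The 5 sex-linked genes were used for the sex of the cells alone.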

Additional observations from a re-analysis of the deposited data

Results flagged for a closer look

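Hoxa10 in G3 mTerc-/-Puma+/+ replicate 3, at 1.457 CPM, lay far from the other 3 libraries of its genotype, at 1.26 to 1.29 CPM, by Dixon's test for 4 values. The gap is small in itself, since the SD of the genotype was 0.0917 CPM. Each gene was examined in the 3 genotypes with 4 libraries, 27 groups in all, of which chance flags about 1 in 20. The difference of that genotype from Puma-/- was -0.71 on the log2 scale without this library.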

How the results depend on the processing

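The members called stayed at 0 of 9 in all 8 comparisons under each alternative that could be fitted (182 counts). The fold changes followed through the alternatives were 22, all given but Hoxa5 in the labelled double knockout libraries against WT and the Hoxb4 interaction. With all 15 libraries these were 0.33 and -0.34, and with the Xist level in the fit 0.35 and -0.46. The unadjusted p of the Hoxb4 interaction (edgeR) was 0.0156 with 14 libraries and 0.0897 with all 15. Of 496 alternative values of the 22 fold changes, 490 kept their direction and stayed outside the threshold. Their lowest adjusted p was 0.0951 (Hoxa10 in G3 mTerc-/-Puma+/+ against Puma-/-, without WT replicate 3). The other 6 changed sign, all between the labelled double knockout libraries and G3 mTerc-/-Puma+/+. Hoxb2 was at -0.215 under limma-voom, at -0.12 and -0.13 without G3 mTerc-/-Puma+/+ replicate 1 and 3, and at -0.91 without replicate 3 of the labelled double knockout libraries. Without that last library Hoxb3 was at -0.099 and Hoxb5 at -0.25. Leaving out single libraries gave ranges of -0.91 to 0.39 for Hoxb2, -0.099 to 0.23 for Hoxb3 and -0.25 to 0.72 for Hoxb5, and the cause was not tested. Under the stricter filter some low members were not tested and gave no value. Over all genes, DESeq2 called 136 in Puma-/- against WT where edgeR called 15, and 996 against 152 in G3 mTerc-/-Puma+/+ against Puma-/-. With all 15 libraries the latter count was 24 and with the Xist covariate 18.

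The replicate numbers gave no sign of a pairing. Deviations from the genotype means correlated at -0.25 to 0.18 over 18 same-number pairs (median 0.020), 3 of them above 0.1. Over 55 pairs with other numbers they correlated at -0.25 to 0.25 (median -0.017), 13 of them above 0.1. With the replicate block, 0 of 9 members were called in each comparison, and over all genes 43 were called in G3 mTerc-/-Puma+/+ against Puma-/-, 21 in the labelled double knockout libraries against Puma-/- and 40 for any difference, against 152, 58 and 85 without it. Depth limits Hoxb2 and Hoxb5, with as few as 8 and 4 counts.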
